A study of Mus musculus with 6 samples.

Results

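A set of genes that encode or regulate the light chains and accessory proteins of striated muscle myosin was followed in muscle whose fibres had lost the genes of the histone variant H2A.Z. They were taken from the deposited table by gene name: the light chain genes Myl1, Myl2, Myl3, Myl4, Myl6b and Mylpf, the kinase gene Mylk2 and the binding protein genes Mybpc1, Mybpc2 and Mybph, 10 of 28510 genes. In the GRCm38 annotation they lie on chromosomes 1 (Myl1, Mybph), 2 (Mylk2), 5 (Myl2), 7 (Mylpf, Mybpc2), 9 (Myl3), 10 (Mybpc1, Myl6b) and 11 (Myl4). RNA came from the whole tibialis anterior, a fast shin muscle, of 12-month-old mice of the C57BL/6 strain. The 3 WT samples were flox/flox for H2A-Z.1 and for H2A-Z.2, the genes that encode H2A.Z, and WT for HSA Cre. The 3 KO samples were H2A-Z.1-/-, H2A-Z.2-/- and HSA Cre+, a transgene in which the human skeletal actin promoter drives the recombinase in muscle fibres. Cells other than fibres were also in the tissue and were not targeted. The question behind the comparison is how the loss of H2A.Z affects transcription in muscle.

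Each myosin heavy chain of the thick filament carries an essential and a regulatory light chain on its neck. Fast fibres use the essential chain encoded by Myl1 and the regulatory chain encoded by Mylpf, and slow fibres use those encoded by Myl3 and Myl2, which also serve the heart ventricle. Myl4 encodes the essential chain of the atrium and of developing skeletal muscle. Mylk2 encodes the skeletal light chain kinase, which phosphorylates the regulatory chain when calcium and calmodulin rise and thereby increases twitch force. Myosin-binding protein C, in a slow form from Mybpc1 and a fast form from Mybpc2, links the thick filament to actin, and Mybph encodes the smaller myosin-binding protein H.

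The libraries held 35456883 to 102919416 counts, with WT replicate 2 the smallest, and the 10 genes took 2.02% to 2.88% of the counts. Levels are CPM, read counts put on a common library size after scaling by the trimmed mean of M-values (TMM). H2afz and H2afv, the names used in the table for the targeted genes, fell 3.59-fold and 4.50-fold, H2afz from 18.5, 15.9 and 15.2 CPM to 5.15, 4.14 and 4.51 CPM, and H2afv from a mean of 18.6 ± 2.42 (SD, n = 3) to 4.14 ± 0.405 CPM. Of 16628 genes tested with edgeR, 2249 rose and 2062 fell at an adjusted p below 0.05, so that 25.9% of all genes tested were called, and 13.5% rose and 12.4% fell. The groups did not overlap for 42.6% of all genes tested. Fewer cells of a type and less RNA per cell cannot be told apart in such whole-tissue samples.

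Of the 10 genes, Mybph and Myl4 rose in KO, Mybpc2 and Mylk2 fell, and 6 did not pass the test. The share called, 4 of 10, stands beside 25.9% of all genes tested. The main fast light chain genes Mylpf and Myl1, by far the most abundant of the family, were among the 6 that did not pass. WT and KO libraries were fully apart for 5 of the 10 genes, against 42.6% of all genes tested.

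**Figure D1:**
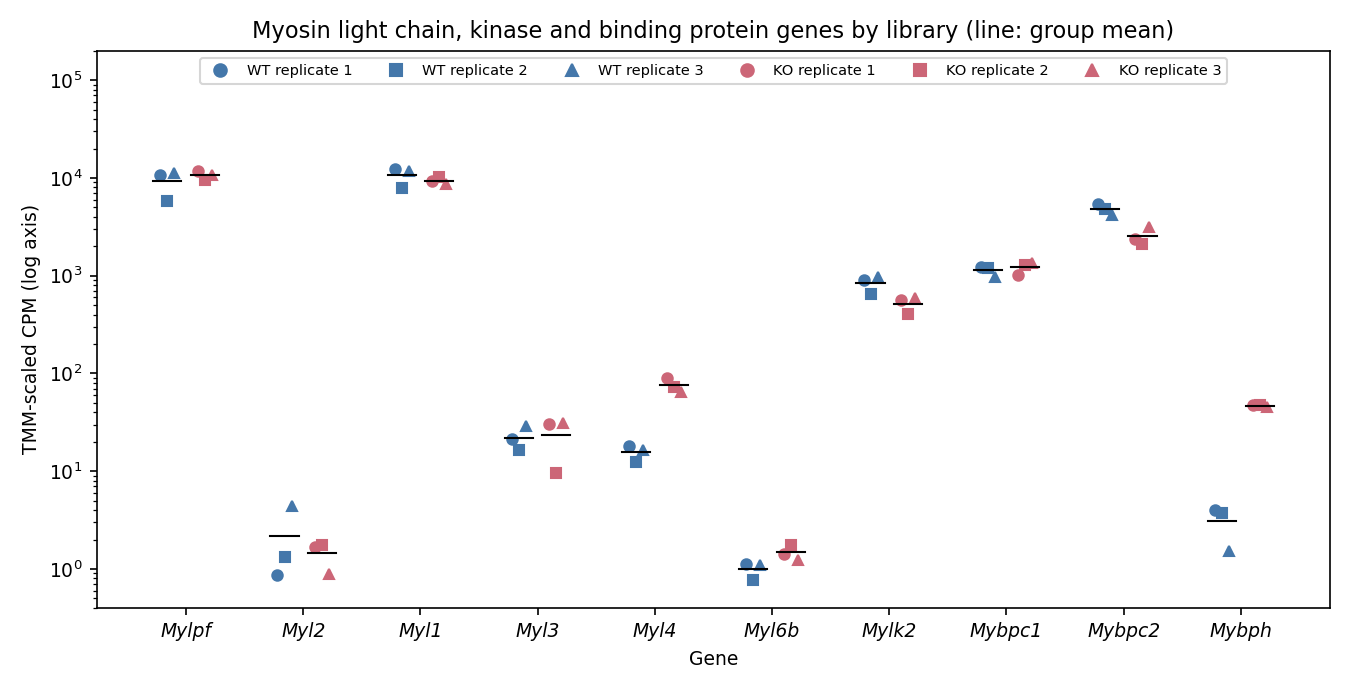
TMM-scaled CPM (log axis) of the 10 genes in each of the 6 libraries, with WT in blue, KO in red, a marker shape for each replicate number and a line at each group mean. Mybph and Myl4 lie higher in all 3 KO libraries, Mybpc2 and Mylk2 lie lower, and WT replicate 2 is the lowest library for Mylpf and Myl1.

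Levels of different genes were compared as CPM per kb of the longest annotated coding transcript. In WT the order was Mylpf at 12036 ± 3952, Myl1 at 9876 ± 2193, Mybpc2 at 1336 ± 172, Mybpc1 at 289 ± 37.4 and Mylk2 at 286 ± 57.5 CPM per kb (SD, n = 3). Below these came Myl3 at 23.6 ± 6.76, Myl4 at 16.7 ± 3.09, Myl2 at 2.45 ± 2.15, Mybph at 1.33 ± 0.580 and Myl6b at 0.968 ± 0.189 CPM per kb in the same 3 libraries. Neighbours whose WT libraries overlapped were Mylpf and Myl1, Mybpc1 and Mylk2, Myl3 and Myl4, Myl2 and Mybph, and Mybph and Myl6b. In KO, Mylpf (13871 ± 1473) and Myl1 (8682 ± 757 CPM per kb) again stood first and did not overlap. Myl4 then stood above Myl3, at 80.6 ± 14.1 against 25.2 ± 12.9 CPM per kb, and Mybph, at 20.2 ± 0.664, stood above Myl2 at 1.62 ± 0.535 CPM per kb. Between these groups lay Mybpc2 at 701 ± 153, Mybpc1 at 313 ± 46.4 and Mylk2 at 176 ± 33.3 CPM per kb. The KO libraries overlapped between Myl3 and Mybph and between Myl2 and Myl6b, the lowest of the 10 at 1.44 ± 0.264 CPM per kb. With the length contained in the deposited signal, Mybpc1 (881) stood above Mybpc2 (717) in KO and the pair overlapped. With that length, the WT libraries of Mylpf and Myl1, of Mybpc1 and Mylk2, and of Myl3 and Myl4 did not overlap. Nor did the KO libraries of Myl2 and Myl6b.

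Mylpf, the fast regulatory chain gene, stood at 10653, 5742 and 11264 CPM in the WT libraries and at 11660, 9422 and 10793 CPM in the KO libraries. WT replicate 2 was low and the other 5 libraries lay close together, so the groups overlapped. The log2 fold change of KO over WT was 0.20 (SE 0.27, 95% interval -0.40 to 0.81, adjusted p = 0.625 by edgeR), and without WT replicate 2 it was -0.052.

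Myl2, the slow and ventricular regulatory chain gene, was near the bottom of the family at 70, 46 and 292 counts in WT and 172, 113 and 95 counts in KO. WT replicate 3 alone was high, at 4.37 CPM against 0.860 and 1.31 CPM in the other WT libraries, and the KO libraries held 1.69, 1.74 and 0.892 CPM. Myh7, the slow heavy chain gene, was not high in that library, at 0.629 CPM against 0.725 and 0.712 CPM. Myl3, the slow essential chain gene, was highest of the WT group there, at 28.9 CPM against 21.1 and 16.3 CPM. The source of the high Myl2 value was not tested. The log2 fold change of Myl2 was -0.62 (SE 0.51, 95% interval -1.74 to 0.51, adjusted p = 0.411 by edgeR), and it was 0.43 without WT replicate 3. Myl2 made up 0.0136% ± 0.00902 of the summed Myl2 and Mylpf level per kb in WT and 0.00806% ± 0.00302 in KO (SD, n = 3, exact two-sided permutation p = 0.5, where 0.1 is the smallest p possible). Ccdc63, which overlaps Myl2 on the opposite strand, held 5 to 40 counts per library. Lengths for the shares were those contained in the authors' deposited signal.

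Among the essential chain genes, Myl4 rose and the others did not pass. Myl4 (ENSMUSG00000061086) stood at 18.1, 12.5 and 16.6 CPM in WT and at 90.6, 72.8 and 64.5 CPM in KO. Every KO library was above every WT library. The rise was 4.81-fold (edgeR log2 fold change 2.27 ± 0.19 SE, adjusted p = 3.92e-05), and the libraries held 439 to 1477 counts in WT and 4731 to 9227 counts in KO. Myl4 overlaps 4 predicted genes on the opposite strand in the reference annotation, and since no source used here states the strand setting of the counting, reads of such partners cannot be told apart. Markers of developing or regenerating fibres outside the family, among them Myh3, Myh8 and Ncam1, also rose in 6 of 6 cases, and their part in the value of Myl4 was not tested.

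Myl1, whose transcripts give both fast essential chains from separate starts and were counted together, stood at 12420, 7981 and 11655 CPM in WT and at 9268, 10269 and 8646 CPM in KO. WT replicate 2 was again the lowest library. Its log2 fold change was -0.19 (SE 0.24, 95% interval -0.71 to 0.33, adjusted p = 0.605 by edgeR). Library size alone in place of TMM turned the value to 0.035, a setting that also moved the median of all genes from 0.01 to 0.22.

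Myl3, the slow essential chain gene, stood at 21.1, 16.3 and 28.9 CPM in WT and at 30.3, 9.62 and 30.9 CPM in KO. KO replicate 2 held the lowest value of the 6 libraries, and the other 2 KO libraries the highest. The same KO library was also the lowest of its group for the heavy chain genes Myh2 (59.8 CPM against 130 and 126) and Myh7 (0.539 CPM against 0.844 and 1.41). It also had the highest share of mitochondrial counts, 32.1% against 19.9% to 25.5% in the other 5, and the part of this in the value of Myl3 was not tested. Pth1r, on the opposite strand, held 37 to 130 counts per library. The log2 fold change of Myl3 was 0.10 (SE 0.36, 95% interval -0.70 to 0.89, adjusted p = 0.874 by edgeR), and its sign differed among the alternatives.

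Myl6b, which encodes an essential chain of slow muscle, was the least abundant essential chain gene, at 91, 27 and 73 counts in WT and 144, 115 and 132 counts in KO. In CPM it stood at 1.12, 0.769 and 1.09 in WT and at 1.41, 1.77 and 1.24 in KO, with no overlap. Its log2 fold change of 0.55 (SE 0.25, 95% interval -0.01 to 1.10) did not pass, with adjusted p = 0.140 by edgeR. It passed only with library size alone (log2 fold change 0.77, adjusted p = 0.0451). Its neighbour Myl6, which encodes a closely related non-muscle chain, held 2339 to 5785 counts per library. No source used here states how reads that fit both genes were handled, so the low count of Myl6b is uncertain.

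Shares within the family do not depend on scaling between libraries. Myl4 made up 0.113%, 0.121% and 0.110% of the level per kb of the 4 essential chain genes in WT and 0.747%, 0.545% and 0.572% in KO. The KO libraries were all above the WT libraries, with exact two-sided permutation p = 0.1, the smallest that 3 against 3 allows. Myl1 kept 99.7% ± 0.0368 of the essential chain level in WT and 99.1% ± 0.218 in KO (SD, n = 3, exact permutation p = 0.1). Since the 4 shares make up the whole, this lower share mirrors the higher shares of the others, mostly Myl4, and is no separate result. Myl3 took 0.203% ± 0.0380 in WT and 0.253% ± 0.140 in KO and overlapped (exact permutation p = 0.6), and Myl6b took 0.00582% ± 0.0002 and 0.00967% ± 0.000938 (exact permutation p = 0.1).

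Mylk2 (ENSMUSG00000027470), the skeletal light chain kinase gene, stood at 911, 651 and 970 CPM in WT and at 563, 406 and 587 CPM in KO. All KO libraries were below all WT libraries, the closest pair being WT replicate 2 and KO replicate 3. Mylk2 was lowered 1.63-fold (edgeR log2 fold change -0.70 ± 0.21 SE, adjusted p = 0.0331). The call did not hold without WT replicate 1 (adjusted p = 0.113), WT replicate 3 (0.110), KO replicate 1 (0.0671) or KO replicate 2 (0.0751), or with library size alone (0.106), while the sign was negative under all 17 alternatives, whose adjusted p ran from 0.00316 to 0.113. Per kb of transcript, the ratio of Mylk2 to its substrate gene Mylpf was 0.0222, 0.0294 and 0.0224 in WT and 0.0125, 0.0112 and 0.0141 in KO (exact two-sided permutation p = 0.1, the smallest possible). This ratio was chosen after the values were seen.

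Mybph (ENSMUSG00000042451), the gene of myosin-binding protein H, changed most in the family. It stood at 3.97, 3.76 and 1.54 CPM in WT and at 48.1, 47.2 and 45.1 CPM in KO. The KO libraries lay close together and far above the WT libraries, of which replicate 3 was the lowest. The rise was 15.2-fold (edgeR log2 fold change 3.93 ± 0.30 SE, adjusted p = 2.78e-05), and the libraries held 103 to 323 counts in WT and 3065 to 4897 counts in KO. By p-value it ranked 26 among all 16628 genes tested. Adora1, which overlaps Mybph on the opposite strand, held 15 to 72 counts per library. The same markers of developing or regenerating fibres moved with Mybph, and their part in its value was not tested.

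Mybpc2 (ENSMUSG00000038670), the fast myosin-binding protein C gene, stood at 5440, 4834 and 4198 CPM in WT and at 2351, 2088 and 3150 CPM in KO. The groups did not overlap. The fall was 1.91-fold (edgeR log2 fold change -0.93 ± 0.22 SE, adjusted p = 0.0120). The call did not hold when WT replicate 1 (adjusted p = 0.0551) or KO replicate 1 (0.0538) was left out, or KO replicate 1 together with WT replicate 2 (0.0952), and the adjusted p over the 17 alternatives ran from 1.06e-05 to 0.0952. Mybpc2 and Mybpc1 each overlap 1 predicted gene on the opposite strand (Gm44646 and Gm48752), with the strand setting unknown as for Myl4.

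Mybpc1, the slow form, stood at 1230, 1207 and 965 CPM in WT and at 1019, 1301 and 1359 CPM in KO. The groups overlapped, and the log2 fold change was 0.11 (SE 0.19, 95% interval -0.31 to 0.54, adjusted p = 0.705 by edgeR). Mybpc1 made up a larger part of the paired C genes in every KO library. Its share of their summed level per kb was 36.4%, 38.8% and 36.8% in WT and 52.3%, 61.2% and 52.2% in KO (exact two-sided permutation p = 0.1, the smallest possible). The size of this share depends on the gene length used. With the longest annotated coding transcripts it was 17.8% ± 0.784 in WT and 31.1% ± 4.61 in KO (SD, n = 3), again with no overlap.

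**Figure D2:**
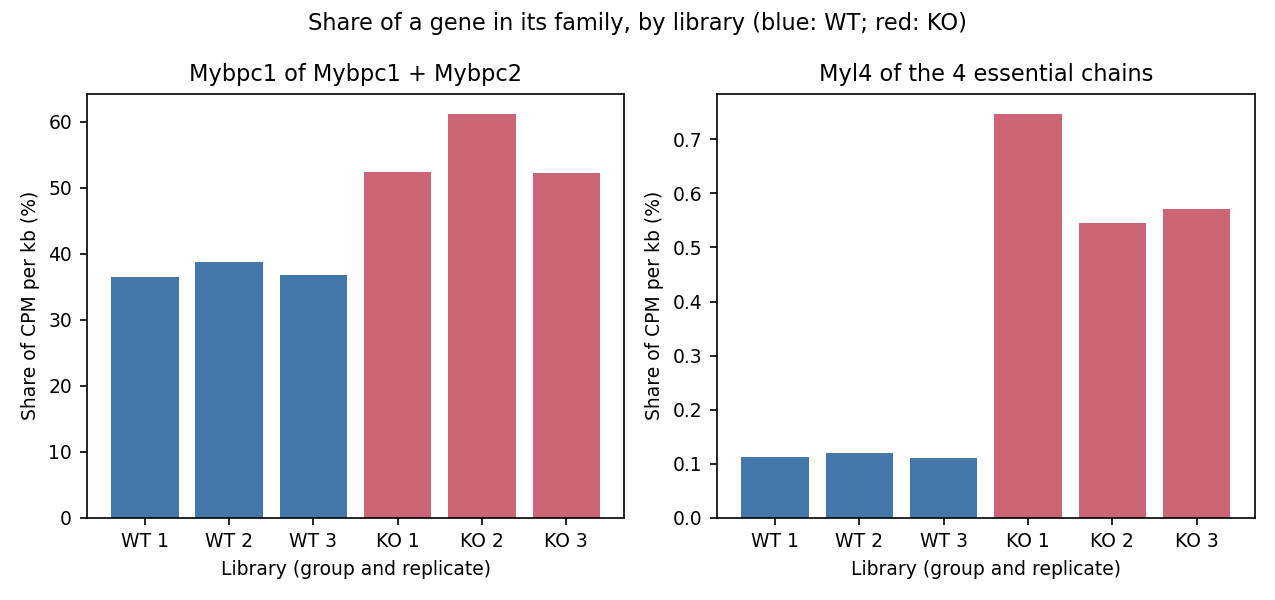
Left, share (%) of Mybpc1 in the summed CPM per kb of Mybpc1 and Mybpc2; right, share (%) of Myl4 in the summed CPM per kb of Myl1, Myl3, Myl4 and Myl6b. Each bar is 1 library, and in both panels the 3 KO bars stand above the 3 WT bars, with Mybpc1 at 52.2% to 61.2% in KO and 36.4% to 38.8% in WT. Lengths are those contained in the deposited signal. With the longest annotated coding transcripts, Mybpc1 was at 28.4% to 36.5% in KO and 17.2% to 18.7% in WT.

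The stretches upstream of Mybph and Mybpc2 are shown because these genes had the lowest p among the risen and the fallen members. They are the 250 bases before the RefSeq start in the GRCm38.p6 build, 5′ to 3′ on the strand of the gene, with E-boxes in capitals. The E-box CANNTG is the motif bound by myogenic basic helix-loop-helix factors and reads the same on both strands as searched. Mybph lies at chr1:134193198-134193447 on the plus strand and Mybpc2 at chr7:44524670-44524919 on the minus strand.
Mybph: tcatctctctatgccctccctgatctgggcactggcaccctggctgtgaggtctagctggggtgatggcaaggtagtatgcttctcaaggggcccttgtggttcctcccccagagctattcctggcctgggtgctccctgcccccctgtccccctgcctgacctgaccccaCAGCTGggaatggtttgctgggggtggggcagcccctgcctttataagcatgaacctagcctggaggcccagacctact
Mybpc2: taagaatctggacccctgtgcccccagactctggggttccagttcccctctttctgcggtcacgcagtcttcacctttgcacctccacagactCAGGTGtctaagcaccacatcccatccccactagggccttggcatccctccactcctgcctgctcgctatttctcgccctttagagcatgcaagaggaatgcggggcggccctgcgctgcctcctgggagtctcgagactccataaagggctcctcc
Both hold 1 E-box, starting 79 bases upstream of the start in Mybph and 157 bases upstream in Mybpc2. Windows were present for 9 of the 10 genes, all but Mylk2, and 8 of the 9 genes had at least 1 E-box, while 66.2% of all 32851 promoter windows of that length had one. The window of Myl4 had none. Myl4 has 8 annotated transcript starts, and the counts do not say which was used. The MEF2 consensus was in no window of the 9 genes and in 2.92% of all windows, and the CArG box was in 1 of the 9, that of Myl3, and in 1.47% of all windows. TATAAA, searched on both strands, was in the windows of 3 of the 9 genes and in 12.4% of all windows. Myl2 had more than 1 window and was counted if any held a motif, whereas the shares of all windows count single windows. These matches are descriptions of letters only.

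**Figure D3:**
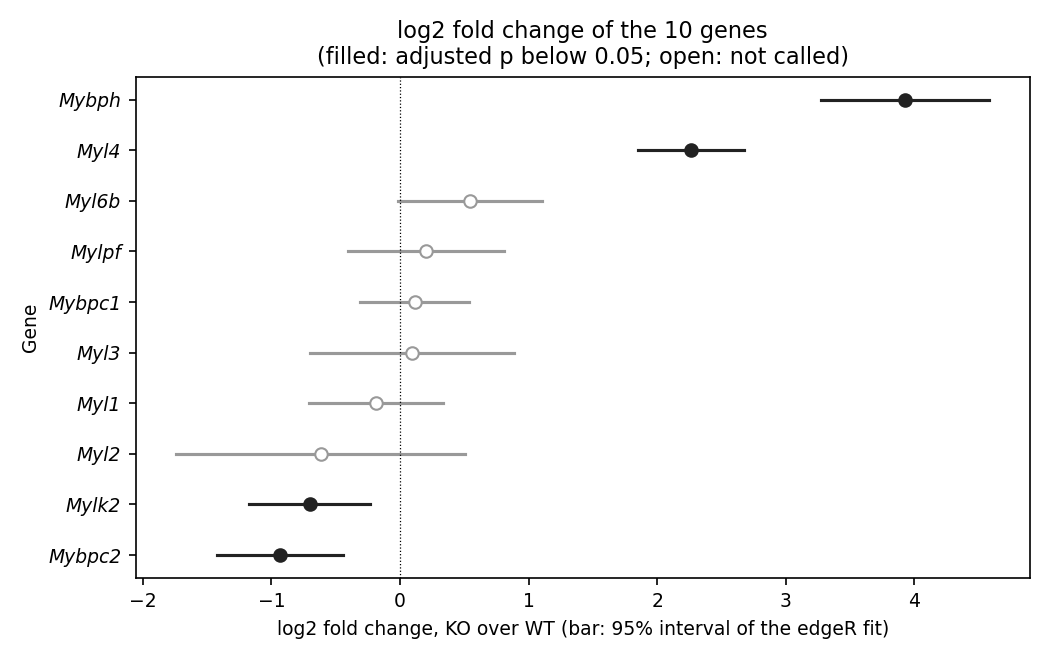
log2 fold change of KO over WT for the 10 genes, with 95% intervals of the edgeR fit; filled points passed at an adjusted p below 0.05. Mybph at 3.93 and Myl4 at 2.27 lie to the right, Mylk2 at -0.70 and Mybpc2 at -0.93 to the left, and the intervals of the 6 open points include 0.

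The authors' deposited table gave the same directions for the called genes, with log2 fold changes of 3.62 for Mybph, -0.90 for Mybpc2 and -0.67 for Mylk2. Adjusted p in the authors' deposited table was 3.75e-44 for Mybph, 1.50e-28 for Myl4, 1.12e-05 for Mybpc2 and 0.00469 for Mylk2. The other 6 genes had adjusted p from 0.338 to 0.979 in the authors' deposited table.

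**Figure D4:**
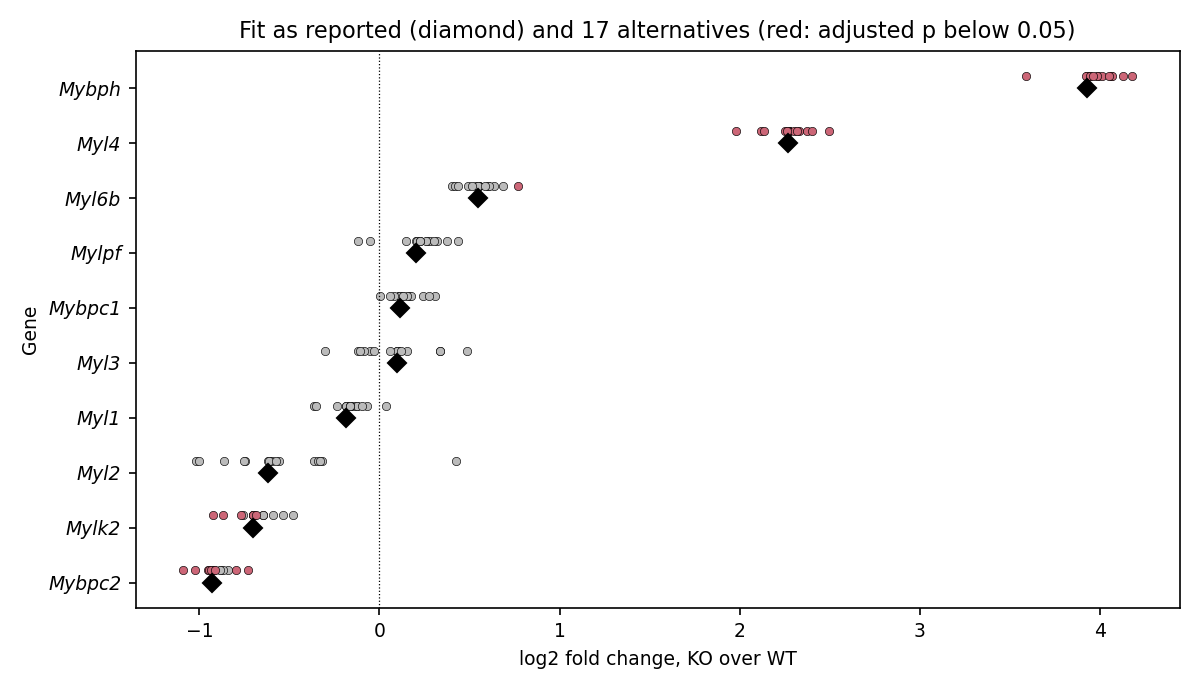
log2 fold change of KO over WT for each gene in the fit as reported (diamonds) and in 17 alternatives (circles, red where the adjusted p was below 0.05). All circles of Mybph (3.59 to 4.18) and Myl4 (1.98 to 2.50) are red, those of Mylk2 and Mybpc2 are partly grey, 1 of Myl6b is red, and those of Myl1, Myl2, Myl3 and Mylpf lie on both sides of 0.

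The genes whose profiles over the 6 libraries were most like those of Mybph and Mybpc2 were named by the root mean square difference of log2 CPM after each gene's mean was subtracted, among 11035 other genes whose mean log2 CPM was 1 or more. For Mybph they were Ncam1, a cell adhesion molecule gene (difference 0.45), the protease inhibitor gene Serpinb1a (0.46) and the metallothionein gene Mt3 (0.48). For Mybpc2 they were the acyl-CoA dehydrogenase gene Acads (0.08), the peroxisome gene Pex26 (0.08) and Hook2, a microtubule linker gene (0.08). The profiles share the same 6 libraries and their group difference, and Ncam1 is also on the list of developing fibre markers.

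The partner genes of the thick filament moved unevenly. The counts given for the lists below stand beside 13.5% risen and 12.4% fallen among all genes tested. Of the sarcomeric heavy chain genes, 2 of 9 tested rose and 0 fell in edgeR, where 2 had an unadjusted p below 0.05 and a lower level. Fallen genes numbered 2 by DESeq2, by limma-voom or with no expression filter, and 3 without KO replicate 3. Those that rose were the perinatal Myh8 at log2 2.99 (SE 0.26) and the embryonic Myh3 at 2.70 (SE 0.45). Myh3 stood at 9.94, 3.93 and 1.86 CPM in WT and at 36.7, 29.5 and 37.2 CPM in KO. Myh4, the main heavy chain gene of this muscle, stood at 30940, 31787 and 25466 CPM in WT and 17046, 15096 and 22775 CPM in KO, short of the threshold (edgeR log2 fold change -0.68 ± 0.25 SE, adjusted p = 0.0688). Myh1, Myh2 and Myh7, of the fast IIx, fast IIa and slow types, had log2 fold changes of -0.02 (SE 0.22), 0.46 (SE 0.25) and 0.45 (SE 0.35) and did not pass either.

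Light chain phosphorylation genes other than Mylk2 were lower in part, with 5 of 19 fallen and 2 risen and a median log2 fold change of -0.21, beside 0.01 over all genes tested. Calm3, which encodes the calcium sensor calmodulin, fell by 0.87 (SE 0.17) on the log2 scale. Mylk4, a kinase gene of the same family as Mylk2, stood at 1174, 1358 and 1254 CPM in WT and at 792, 708 and 907 CPM in KO. It fell by 0.65 (SE 0.18, adjusted p = 0.0203 by edgeR). Camk2b, a calmodulin-dependent kinase gene, rose by 0.67 (SE 0.18), and Mylk, the smooth muscle kinase gene, was not called at 0.21 (SE 0.15). Mylk3, the cardiac kinase gene, was called as risen on very low counts, 1 to 7 in WT and 12 to 33 in KO. Leaving out WT replicate 1 or KO replicate 3 gave 3 fallen genes of this list, WT replicate 2 gave 2, and KO replicate 1 or library size alone gave 1. Risen genes numbered 0 without WT replicate 2, and 1 when any other library but KO replicate 2 was left out, by DESeq2, with the stricter expression filter or with counts thinned to the smallest library.

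Other light chain and binding protein genes had 1 risen and 1 fallen of 5 tested. Myl6, of the non-muscle essential chain, fell by 0.61 (SE 0.15), and Myl12a, of a non-muscle regulatory chain, rose by 0.52 (SE 0.16). Leaving out WT replicate 1, WT replicate 2 or KO replicate 1 ended the call of Myl12a, and no gene of this list fell without WT replicate 1 or with library size alone, while 2 fell without KO replicate 3. Risen genes of this list numbered 2 with library size alone or with no expression filter. Myl7, Mybpc3 and Mybphl were not tested at these depths. Mybpc3, the cardiac form, had at most 4 counts in a WT library and 3 to 17 in a KO library, and Mybphl had 0 counts in all WT libraries and 3, 2 and 15 in KO.

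Genes of thick filament assembly and anchoring had 2 risen and 3 fallen of 13, with a median of -0.03. Myom3, of an M-band protein, rose by 3.40 (SE 0.17) and Obsl1, of an obscurin-like linker, by 1.19 (SE 0.28). Trim63 and Trim54, of muscle RING finger proteins, fell by 0.78 (SE 0.15) and 0.88 (SE 0.22). Library size alone gave 1 fallen and 4 risen genes, DESeq2 gave 5 fallen, and only 1 gene rose without WT replicate 3.

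**Figure D5:**
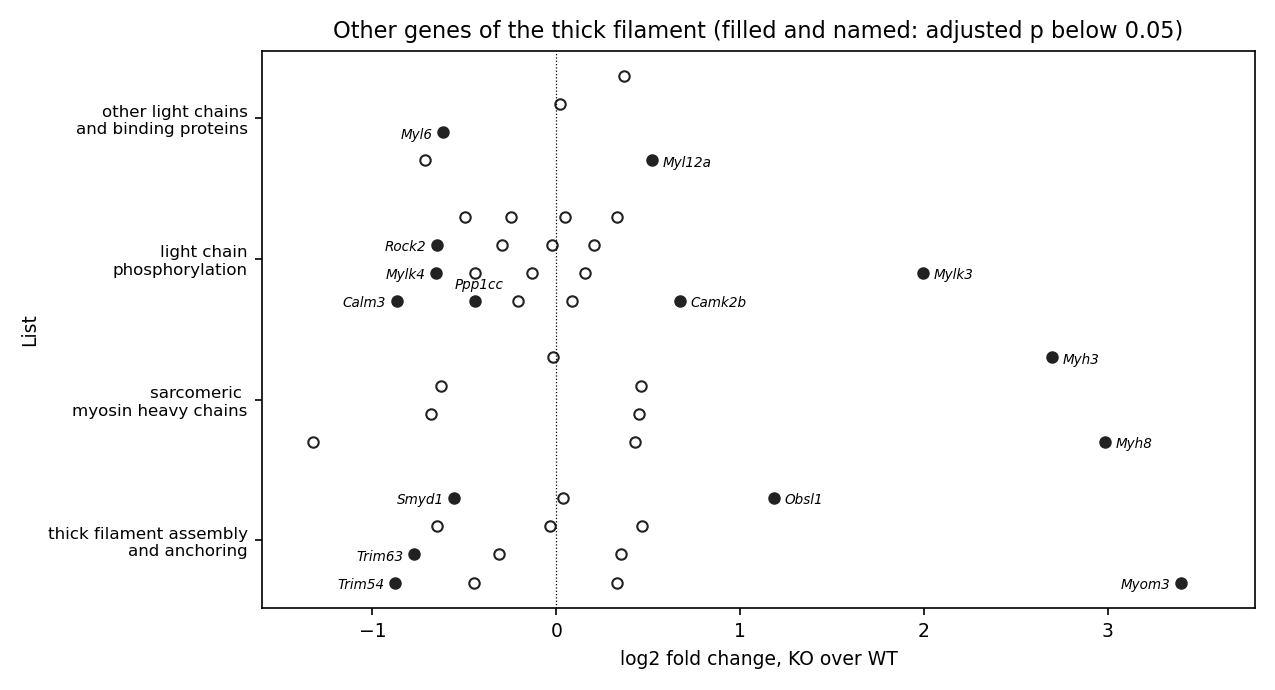
log2 fold change of KO over WT for genes of 4 lists of thick filament partners; each point is a tested gene, and filled, named points passed at an adjusted p below 0.05. Myom3 at 3.40, Myh8 at 2.99 and Myh3 at 2.70 lie farthest right, and Trim54 and Calm3 are the lowest of the named genes.

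Set against the summed sarcomeric heavy chain level per kb of transcript, the regulatory chain genes Myl2 and Mylpf stood at 2.52, 1.31 and 3.25 times that level in WT and at 4.80, 4.35 and 3.32 times in KO. The groups did not overlap, but WT replicate 3 and KO replicate 3 were nearly equal (exact two-sided permutation p = 0.1, the smallest possible). Most of the heavy chain level was Myh4, at a mean of 4887 CPM per kb in WT and 3043 in KO, beside 348 and 344 for Myh1. Neither Mylpf nor Myh4 was called by itself. For the essential chain genes the ratio was 1.93 ± 0.565 in WT and 2.68 ± 0.742 in KO (SD, n = 3) and the groups overlapped (exact permutation p = 0.3). Mybpc1 and Mybpc2 together stood at 0.310 ± 0.0206 of the heavy chain level in WT and 0.299 ± 0.0197 in KO (exact permutation p = 0.5). These ratios were chosen after the values were seen.

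Marker lists of other cells and fibre types differed in how far they moved with the groups. The 6 markers of developing or regenerating fibres had a summed level of 42.3 to 91.5 CPM in WT and 402 to 794 CPM in KO. Actc1 held most of the KO level, at 234, 320 and 624 CPM, against 64.8, 42.7 and 29.2 CPM in WT. Myh3 and Myh8 are on this list and also on that of the heavy chains. Slow fibre markers outside the family rose in 5 of 8 cases, with 64.3 to 66.5 CPM in WT and 137 to 152 CPM in KO; Tnni1 and Tnnt1, of slow troponin, had the lowest p. Cardiac markers rose in 2 of 5 cases tested, Tnnt2 and Nppb, with a summed level of 2.56 to 4.10 CPM in WT and 12.8 to 14.3 CPM in KO. Most of the KO level was Tnnt2, at 11.1, 10.8 and 11.5 CPM, against 2.15, 0.969 and 1.21 CPM in WT. Of the same list, 1 was lower at an unadjusted p below 0.05 by edgeR, the heavy chain gene Myh6. Its log2 fold change was -1.32 (SE 0.49, adjusted p = 0.0688 by edgeR). By DESeq2, by limma-voom or with no expression filter, 1 cardiac marker fell. The atrial light chain gene Myl7 had 2, 0 and 0 counts in WT and 0 in all KO libraries. The atrial peptide gene Nppa had 0 counts in all WT libraries and 8 to 21 in KO. Macrophage markers rose in 4 of 6 and fibroblast markers in 3 of 5 cases, with summed levels of 30.1 to 65.2 and 508 to 748 CPM in WT and 76.1 to 109 and 749 to 1425 CPM in KO. Risen fibroblast markers numbered 0 without WT replicate 3, and 1 on omitting either WT replicate 2 or KO replicate 2. They numbered 5 on omitting KO replicate 3 or with no expression filter. Risen macrophage markers numbered 3 or 4 with any 1 library left out and 2 without both WT replicate 2 and KO replicate 1. Satellite cell markers rose in 1 of 6 cases, Chodl, with a summed level of 30.8 to 36.9 CPM in WT and 42.7 to 51.8 CPM in KO. They rose in 0 cases when any WT library was left out and in 2 without KO replicate 2, without KO replicate 3 or with library size alone. Much of the level was Sdc4, not called, at 22.9, 20.2 and 17.5 CPM in WT and 31.0, 21.4 and 28.0 CPM in KO. Pax7 and Myf5 had log2 fold changes of 0.17 (SE 0.20) and 0.03 (SE 0.23) and did not pass. Calcr at 0.51 (SE 0.46) and Vcam1 at 0.39 (SE 0.22) did not pass either. Smooth muscle markers had a summed level of 339 to 510 CPM in WT and 262 to 343 CPM in KO, which overlapped. Most of it was Synpo2, at 272, 262 and 417 CPM in WT and 221, 190 and 246 CPM in KO. Of the 7 markers 1 fell, Cnn1, with 34 to 71 counts per library. That call was lost when any library other than WT replicate 1 was left out, and with limma-voom, library size alone or the stricter expression filter, and 2 fell by DESeq2 or with no expression filter. Endothelial markers had 0 of 6 called by edgeR (3 lower at an unadjusted p below 0.05, 1 fallen by DESeq2, 0 by limma-voom and 2 without KO replicate 3), at 220 to 238 CPM in WT and 166 to 211 CPM in KO. Fibre markers such as Acta1 and Ckm had 0 of 7 called by edgeR (2 lower at an unadjusted p below 0.05, 3 fallen by DESeq2, 1 by limma-voom or with no expression filter and 2 without KO replicate 3) and were abundant in all libraries, with a summed level of 221599 to 241726 CPM in WT and 151412 to 195574 CPM in KO. The part of these cells in the values of the light chain and binding protein genes was not tested.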

How the data were processed

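Transcripts were sequenced from frozen muscle, 3 WT and 3 KO samples grouped by genotype label. Whether samples are separate animals is not labelled, and p-values cover only the spread among these 6 samples, which may be technical. A stranded total RNA kit with ribosomal RNA removal was used, per the labels. The tools named in the submitters' processing notes are TopHat2 2.0.14, Bowtie, HTSeq 0.6.1 and the build mm9, without roles. No source used here gives the annotation or the strand setting.

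Per the file headers, the authors provide raw read counts per gene and, beside them, a length-divided normalized signal (per kb). The deposited log2 fold change, p-value and adjusted p-value come from the authors' own comparison, whose test is not stated. Dividing counts by median-of-ratios size factors and by the deposited signal gave the authors' gene length. For some genes it was far below the longest coding transcript in GENCODE M21 (GRCm38), as for Mylpf (0.277 against 0.766 kb), Mybpc1 (1.39 against 3.92 kb) and Ttn (2.14 against 107 kb). Levels between genes therefore use the transcript length, a choice made after the data were seen, and family shares use the deposited length.

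Counts were tested with edgeR 4.0.16 in R 4.3.3 (TMM, filterByExpr with minimum count 10 and total 15, quasi-likelihood F test, Benjamini-Hochberg adjustment over 16628 genes), after a check on simulated data. Intervals are 95% and SE is the absolute log2 fold change divided by the square root of F. Alternatives used DESeq2 1.42.0 and limma 3.58.1 among others. Sequences are from RefSeq. The members, lists and tests were chosen with earlier results of these data known. Named genes are the 10 members, the targeted genes, up to 4 called genes per list, selected heavy chain, kinase and binding protein genes whatever their p, and the 3 most alike profiles of the member with the lowest p in each direction; Myl12a, Mylk3 and the troponin and cardiac markers come under the list rule. Acta1, Ckm, Nppa and Myl7, as list members, and the opposite-strand genes were named outside this rule, after their values were seen. So were the list members Myh6, Synpo2, Actc1, Sdc4, Pax7, Myf5, Calcr and Vcam1. The listed markers Adgre1 and Tnnc1 were not analysed here. The values of 1 listed gene, which is in the counts, are not reported or plotted here. Figures were drawn with matplotlib 3.10.9.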

Additional observations from a re-analysis of the deposited data

How the results depend on the processing

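Over 17 alternatives to the fit, Mybph and Myl4 rose in every one, and 151 of 170 values of the 10 genes kept direction and side of the threshold. Fallen members numbered 2 in the fit as reported, 1 with library size alone, 1 when WT replicate 2 and KO replicate 1 were omitted together, and 0 to 2 with each library left out in turn, while risen members numbered 2 in all but library size alone, where Myl6b passed too and there were 3. Reversed values belonged to genes that did not pass. They were Myl1 with library size alone (0.035), Myl2 without WT replicate 3 (0.43) and Mylpf without WT replicate 2 (-0.052) or with that library and KO replicate 1 left out (-0.12). Myl3 was reversed with limma-voom (-0.054), the replicate block (-0.033), both libraries left out (-0.30), and on omitting WT replicate 2 (-0.09), KO replicate 1 (-0.12) or KO replicate 3 (-0.11). With each library left out in turn, log2 fold changes ran from -1.02 to 0.43 for Myl2, from -0.12 to 0.48 for Myl3 and from -0.052 to 0.37 for Mylpf. The causes were not tested.

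Genes risen numbered 3418 with library size alone and 1113 with both libraries left out, and 1391 to 2321 with each library left out in turn. Genes fallen numbered 1030, 977 and 1168 to 2189 under the same settings. The difference in share, KO minus WT, of Myl4 was 0.507 percentage points as reported, 0.654 from raw counts and 0.749 with transcript lengths. That of Myl6b was 0.00386, 0.00614 and 0.00645 in the same order, and that of Myl1 -0.560 as reported and -0.813 with transcript lengths. With each library left out in turn, the differences ran from 0.444 to 0.545 for Myl4, from 0.00334 to 0.00425 for Myl6b and from -0.678 to -0.464 for Myl1.

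Whether a replicate number marks a shared litter, batch or day is not labelled. Deviations of same-numbered WT and KO libraries correlated at 0.06, 0.02 and 0.06, and those of other pairs at -0.08 to 0.02. The replicate block called 2457 risen and 2236 fallen genes, with 2 members risen and 2 fallen. It called 2 endothelial, 2 smooth muscle, 1 cardiac and 1 heavy chain gene fallen, against 0, 1, 0 and 0, and 2 of the other light chain and binding protein genes fallen, against 1. Low counts limit Myl2 and Myl6b, whose libraries held at most 292 counts.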
